A study of Cavia porcellus with 24 samples.

Results

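The AGAP2 locus of the guinea pig was followed at single cytosines from 2000 bp before the first exon to 2000 bp after the last one, on scaffold DS562864.1 from 40083825 to 40098643 of the build cavPor3 (14819 bp). Every cytosine of either strand listed between these borders was taken, 348 of the 3233055 cytosines listed in the hippocampus or the blood, of which 288 were listed in the hippocampus, 344 in the blood and 284 in both. The locus itself was chosen by measured values, since it was picked for its methylation differences between exposed and control animals, so that these differences are described here without a test of the locus. The stretches called the first exon (40085825-40086340) and the last exon (40096502-40096643) were set with the locus, as its ranges of interest. Exon and intron borders of the build were not checked, and no sequence of the build was used.

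AGAP2, also called PIKE, is a GTPase-activating protein for small GTPases of the Arf family that also carries a GTPase-like domain of its own. It binds and stimulates phosphoinositide 3-kinase and Akt, is abundant in brain, and is known for keeping neurons from apoptosis, with a long form that links metabotropic glutamate receptors to phosphoinositide 3-kinase through Homer. Dense CpGs around a promoter are commonly unmethylated, CpGs inside a transcribed gene are commonly methylated, and the maintenance methyltransferase copies methylation to the opposite strand of a CpG after replication.

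Hippocampus and whole blood came from the same 12 female Hartley guinea pigs on postnatal day 14, 1 animal from each litter. The mothers of 6 animals had been injected with betamethasone, a synthetic glucocorticoid (sGC), at 1 mg/kg 3 times over, on gestational days 40/41, 50/51 and 60/61, and the mothers of the other 6 with saline on those days (control). Both tissues are mixtures of cell types, and a change of methylation within cells and a change in the mixture cannot be told apart. Methylation was read by reduced representation bisulfite sequencing (RRBS), which sequences DNA cut at MspI sites, and each table gives, for a cytosine, the methylated and the total reads of all 6 animals of a group together. Each of the 4 pools therefore has 1 value per cytosine, and the spread between animals is not known. Intervals are 95% Wilson or Newcombe intervals that cover counting error at most. A read that covers several cytosines is counted at each of them, and such counts are called readings. Intervals over summed readings take the readings as independent, so they are too narrow even for counting error.

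The 348 cytosines lay in 222 CpGs and formed 9 clusters with gaps of at most 200 bp. Cluster 1 (40084569-40084606) lay upstream. Cluster 2 (40084982-40086380) held 209 cytosines and ran from upstream through the first exon. Clusters 3 (40087044-40087367), 4 (40090392-40090485), 5 (40091197-40091466), 6 (40094127-40094329) and 7 (40095075-40095327) lay in the 10161 bp between the exons. Cluster 8 (40096145-40096643) held 70 cytosines and ended with the last exon, and cluster 9 (40097225-40097365) lay downstream. Over the whole locus the median coverage of a cytosine was 77.0 reads with sGC and 73.5 in controls for hippocampus, and 62.0 and 48.0 for blood, with a minimum of 10 reads.

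Over all readings of the locus, the hippocampus was methylated at 13.5% in the sGC pool (3545 of 26192 readings) and at 9.19% in the control pool (2248 of 24461). The blood was methylated at 63.3% in the sGC pool (17340 of 27393) and at 59.7% in the control pool (12592 of 21080). The locus was thus mostly unmethylated in the hippocampus and mostly methylated in the blood, in both groups. These means hide large differences along the gene, from clusters near 0% to clusters above 90%.

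**Figure D1:**
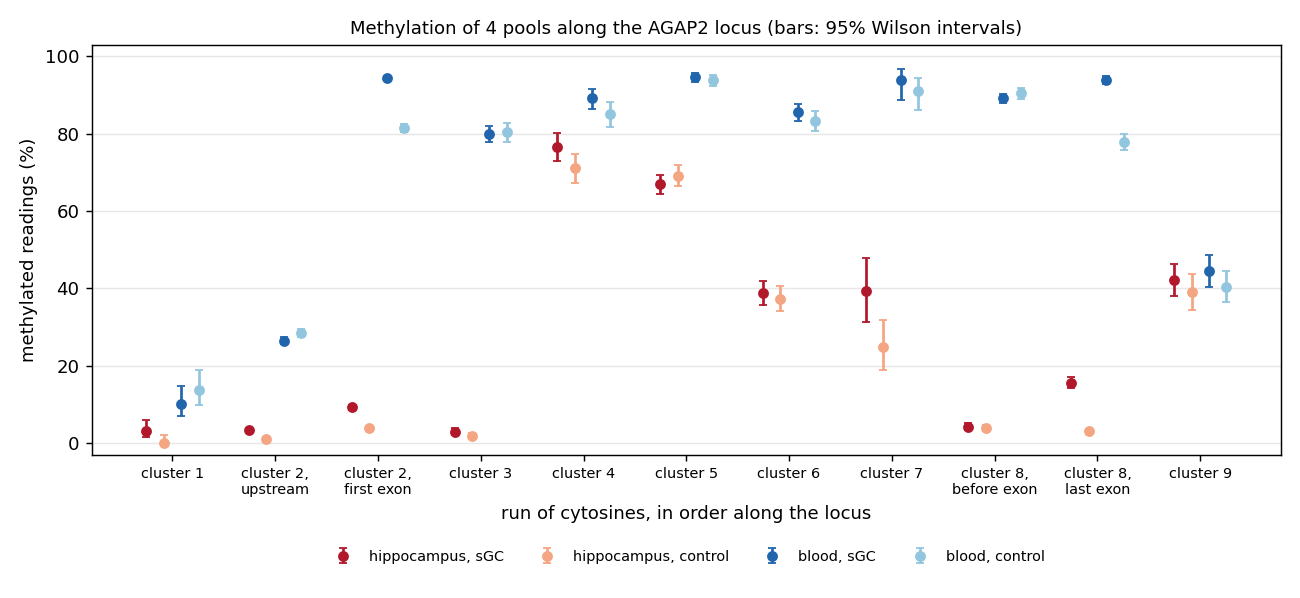
Methylated share of the readings (y axis, %) in each run of cytosines in order along the locus (x axis), for the 4 pools. The 95% Wilson intervals take readings as independent and leave out the spread between animals. In blood the sGC and control pools lie apart in the first exon (94.3% against 81.5%) and the last (93.9% against 77.9%). In hippocampus they lie apart in the last exon (15.6% against 3.00%) and less so in the first (9.24% against 3.91%). The upstream part of cluster 2 differs less, at 3.30% against 1.11% in hippocampus and 26.5% against 28.4% in blood. Cluster 7 of the hippocampus, with few reads, is at 39.2% against 24.7% with overlapping intervals. Cluster 3 and the part of cluster 8 before the last exon stay near 80% and 90% in blood in both groups.

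Upstream of the first exon, CpGs were sparsely methylated in both tissues at first, and blood reached high levels close to the exon. The hippocampus stayed low, and with sGC it was not even, from 0.616% between 40085538 and 40085624 to 7.96% between 40085627 and 40085724. In cluster 1 the hippocampus had 2.99% methylated readings with sGC (7 of 234) and none in controls (0 of 172, which allows up to 2.18% by the Wilson interval). The blood there had 10.2% (24 of 236) and 13.8% (30 of 218). From 40085028 to 40085114 the blood was still at 5.59% with sGC and 5.44% in controls. From 40085327 to 40085417 it was at 14.3% and 15.7%, and from 40085627 to 40085724 at 71.2% and 67.4%. Over the same 3 stretches the hippocampus was at 1.82%, 3.72% and 7.96% with sGC and at 1.25%, 0.499% and 1.65% in controls. The transition of the blood from mostly unmethylated to mostly methylated thus lay within the last 400 bp before the exon, in a region where no cytosine of the control hippocampus exceeded 6.67%.

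The rise in blood was not smooth, and CpGs less than 100 bp apart could differ by more than their counting error. At 40085603 of the plus strand, the sGC blood was methylated in 47 of 56 reads (83.9%), while at 40085671, also of the plus strand, it was methylated in 33 of 111 (29.7%). At 40085757 the plus strand had 44.0% (33 of 75) and at 40085782 it had 90.7% (68 of 75). The control blood was likewise high at the first and last of these 4 cytosines and lower at the others, with 43 of 49, 35 of 86, 15 of 40 and 38 of 40 reads methylated. These 4 were chosen after their values were seen. Other CpGs lie between them, which the plot of cytosines around the first exon shows.

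In the upstream part of cluster 2, the summed hippocampus differences between the sGC and control pools had opposite directions in a pair of neighboring stretches. The blood was lower with sGC in the first stretch and had no clear direction in the second. From 40085538 to 40085624, the blood was methylated at 28.9% with sGC (513 of 1773 readings) and at 41.2% in controls (593 of 1441), a difference of -12.2 points (interval -15.5 to -8.91). Of the 22 cytosines there, 20 were lower with sGC in blood, where 53.7% of all cytosines were higher. None of the 22 was called by the test described below. In the hippocampus the same stretch was at 0.616% with sGC (8 of 1298) and 1.81% in controls (24 of 1328). From 40085627 to 40085724, the hippocampus was instead higher with sGC, at 7.96% (100 of 1256) against 1.65% (17 of 1032), by 6.31 points (4.63 to 8.06). The blood was at 71.2% there with sGC (920 of 1292) and 67.4% in controls (615 of 913), a difference of 3.85 points (-0.0487 to 7.78). Of its 14 cytosines there, 7 were higher with sGC and 7 lower. The hippocampus difference lay at cytosines 40085671 to 40085724, such as 40085723 of the plus strand, with 16 of 115 reads methylated with sGC and 0 of 90 in controls.

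**Figure D2:**
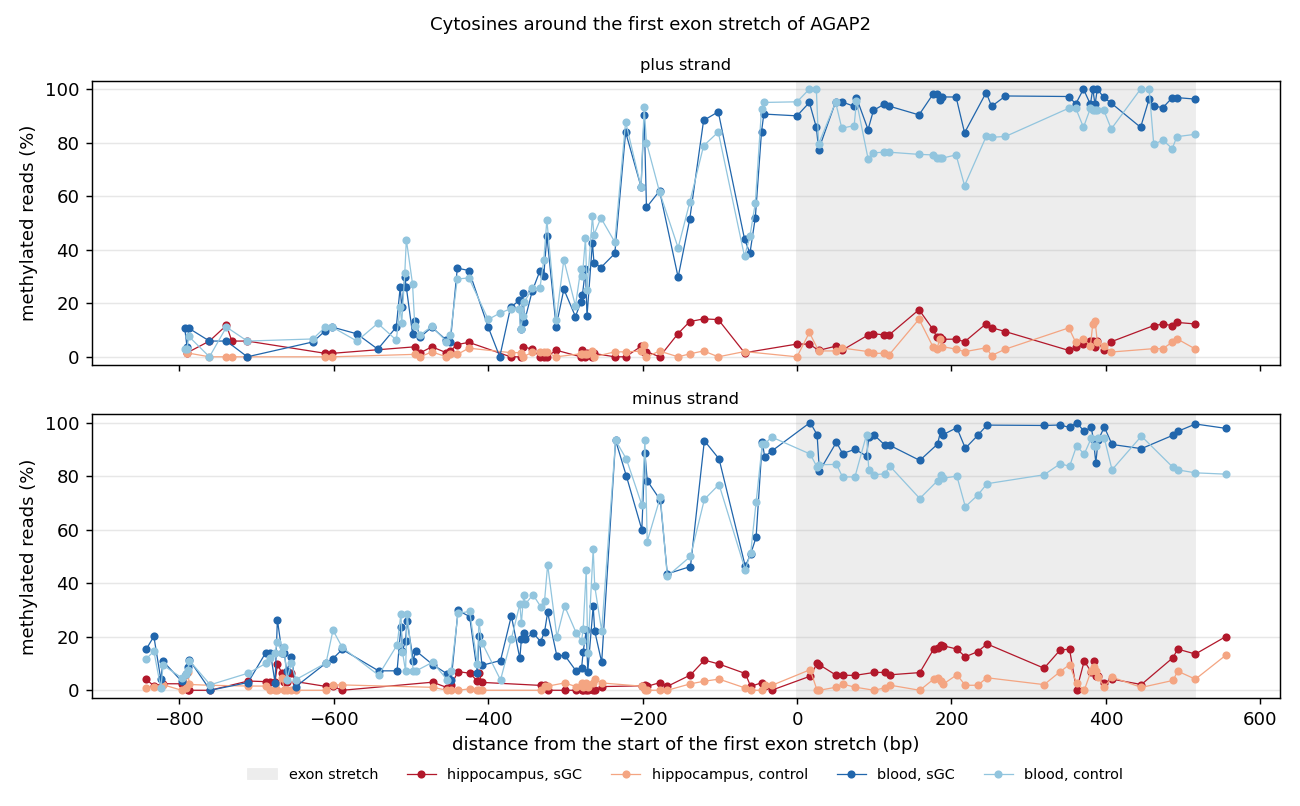
Methylation (y axis, %) of each cytosine of cluster 2 against its distance from the start of the first exon (x axis, bp), plus strand above and minus strand below, with lines that only join neighboring cytosines and the exon in grey. Blood climbs ahead of the exon, from 5.59% with sGC between 40085028 and 40085114 to 71.2% between 40085627 and 40085724, while no upstream cytosine of the control hippocampus exceeds 6.67%, and within the exon the sGC pools lie above the control pools in both tissues, at 9.24% against 3.91% in hippocampus and 94.3% against 81.5% in blood.

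In the first exon, 73 cytosines of 42 CpGs were listed (including the opposite strand of the CpG at its last position), and both tissues were higher with sGC. The hippocampus was at 9.24% with sGC (679 of 7351 readings, interval 8.60 to 9.92) and at 3.91% in controls (268 of 6861, 3.47 to 4.39). The difference was 5.33 points (4.53 to 6.14). In hippocampus 53 of 66 cytosines were higher with sGC and 13 lower, where 56.0% of all cytosines were higher. The blood was at 94.3% with sGC (5889 of 6243, 93.7 to 94.9) and at 81.5% in controls (3780 of 4639, 80.3 to 82.6). The difference in blood was 12.8 points (11.6 to 14.1). There 61 of 72 cytosines were higher and 11 lower, where 53.7% of all cytosines were higher. The pools of the hippocampus overlapped over the cytosines of the exon, from 0% to 17.6% with sGC and from 0% to 17 of 121 reads in controls.

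The difference was not even across the first exon. From 40085825 to 40085924 it was 3.71 points in hippocampus and 6.77 in blood. From 40086031 to 40086095 it reached 8.72 points in hippocampus (11.4% against 2.70%) and 17.8 in blood (95.1% against 77.3%), and all 9 cytosines there were higher with sGC in both tissues. From 40086145 to 40086223 it was 1.23 points in hippocampus (interval -0.504 to 2.96), where 9 cytosines were higher and 9 lower, and 8.83 in blood. From 40086232 to 40086318 it was 6.59 and 11.6 points. The exon thus held 2 stretches of larger differences separated by about 80 bp in which the hippocampus pools, summed over both strands, were within counting error. That sum hides cytosines that differed in opposite directions. At 40086177 of the plus strand, 2 of 84 reads were methylated with sGC and 8 of 74 in controls. Its minus strand had 26 of 170 and 14 of 146. Of the 18 cytosines there, 5 had an unadjusted p below 0.05 in hippocampus (Fisher's exact test) and none was called after adjustment.

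Single cytosines of the first exon spanned a wide range. The cytosine with the largest difference in hippocampus was 40086014 of the minus strand, with 14 of 84 reads methylated with sGC (16.7%) and 2 of 90 in controls (2.22%). The largest difference in the other direction was at 40086211 of the plus strand, with 3 of 84 (3.57%) and 10 of 74 (13.5%). In blood the largest difference was at 40086006 of the plus strand, with 100 of 102 reads methylated with sGC (98.0%) and 46 of 62 in controls (74.2%). The largest in the other direction in blood was at 40085850 of the plus strand, with 12 of 14 and 19 of 19, at a coverage too low to separate the pools. The difference persisted 40 bp past the exon, at 40086380 of the minus strand, where the blood had 181 of 185 reads methylated with sGC (97.8%) and 134 of 166 in controls (80.7%).

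Between the exons, hippocampus and blood were each at similar levels in the sGC and control pools. Over the 107 cytosines, the hippocampus was at 26.5% with sGC (1917 of 7238) and 24.3% in controls (1656 of 6821), a difference of 2.21 points (0.768 to 3.64). The blood was at 88.2% (6217 of 7049) and 87.6% (4930 of 5630), a difference of 0.630 points (-0.509 to 1.78). In hippocampus 56 of 98 cytosines were higher with sGC and 42 lower, and in blood 56 of 106 were higher and 50 lower. These counts were close to the shares of all cytosines that were higher, 56.0% in hippocampus and 53.7% in blood. The differences were smaller in both tissues than in either exon.

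The clusters between the exons were of 2 kinds. In cluster 3, shortly after the first exon, and in the first 47 cytosines of cluster 8, shortly before the last exon, the listed CpGs were dense and the tissues stood far apart. In hippocampus, cluster 3 was methylated at 2.95% with sGC (46 of 1557) and 1.83% in controls (27 of 1478), and in blood at 79.9% (1126 of 1409) and 80.3% (819 of 1020). The part of cluster 8 before the last exon was at 4.21% (107 of 2542), 3.82% (96 of 2511), 89.2% (2192 of 2458) and 90.5% (1725 of 1907) in the same order. Cluster 3 held 6.79 listed CpGs per 100 bp and that part of cluster 8 held 8.55, close to the 8.12 of the first exon. CpGs that were not listed are not counted in these densities.

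Clusters 4 to 7 had 2.37 to 3.33 listed CpGs per 100 bp and were methylated in both tissues, more so in blood. In cluster 4, the hippocampus was at 76.6% with sGC (397 of 518) and 71.0% in controls (397 of 559), and the blood at 89.2% (477 of 535) and 85.2% (390 of 458). In cluster 5 the hippocampus was at 67.0% (908 of 1356) and 69.2% (760 of 1099), and the blood at 94.6% (1287 of 1361) and 93.8% (1033 of 1101). Cluster 6 had lower hippocampus levels, of 38.8% with sGC (374 of 965) and 37.3% in controls (313 of 839), with blood at 85.5% (817 of 955) and 83.3% (665 of 798). Cluster 7 was read at low coverage, at most 33 reads per pool and cytosine, and had 39.2% in hippocampus with sGC (51 of 130) and 24.7% in controls (41 of 166), with blood at 93.8% (137 of 146) and 91.1% (164 of 180).

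Within these clusters, single CpGs also departed from their neighbors in the same way in both groups. In cluster 8, the CpG at 40096233 was methylated in 40 of 99 reads of the sGC blood (40.4%) and 41 of 74 of the control blood (55.4%) on the plus strand, while the next plus strand cytosine at 40096235 had 82 of 88 (93.2%) and 65 of 68 (95.6%). Its minus strand cytosine at 40096234 was low as well, at 30.6% (26 of 85) and 36.2% (25 of 69). In cluster 6, 40094329 of the minus strand was at 41.8% in the sGC blood (51 of 122) and 40.6% in the control blood (43 of 106), while 40094314 was at 95.9% and 97.2%. Isolated low CpGs in blood were thus seen in both pools, and at the first of these CpGs on both strands.

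In the last exon, the sGC and control pools of the hippocampus did not overlap, in the contrast by which the locus was chosen. How often this occurs in other runs of cytosines was not counted, and many of these cytosines share reads. All 22 cytosines listed were higher with sGC, where 56.0% of all cytosines were. They were between 9.52% and 19.6% with sGC, and between 0% and 7.10% in controls. Over the stretch the hippocampus was at 15.6% with sGC (449 of 2880 readings, interval 14.3 to 17.0) and 3.00% in controls (82 of 2736, 2.42 to 3.70), a difference of 12.6 points (11.1 to 14.1). The blood was at 93.9% with sGC (2004 of 2135, 92.8 to 94.8) and 77.9% in controls (1227 of 1576, 75.7 to 79.8), a difference of 16.0 points (13.7 to 18.3). In blood 18 of 23 cytosines were higher with sGC and 5 lower, where 53.7% of all cytosines were higher.

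The cytosine with the largest hippocampus difference was 40096542 of the plus strand. In hippocampus it was methylated in 28 of 161 reads with sGC (17.4%) and 2 of 151 in controls (1.32%), and in blood in 107 of 113 (94.7%) and 51 of 71 (71.8%). The largest blood difference was at 40096570 of the minus strand, with 118 of 134 (88.1%) and 67 of 107 (62.6%), where the hippocampus had 25 of 174 (14.4%) and 3 of 161 (1.86%). Cytosines close together gave nearly the same counts, as they lie on the same reads. The 8 plus strand cytosines from 40096502 to 40096542 had 24 to 28 methylated reads of 161 or 162 in the sGC hippocampus and 1 to 4 of 151 or 152 in controls, so they are not 8 independent measurements.

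The 5 cytosines that were lower with sGC in blood were all of the plus strand, between 40096584 and 40096643, and each had 12 to 17 reads in a blood pool. At 40096622, for example, 10 of 14 reads were methylated with sGC and 16 of 17 in controls, while 2 of 21 and 1 of 25 were methylated in hippocampus. Together with 1 minus strand cytosine of similar depth, they were at 82.1% in the sGC blood (69 of 84) and 92.2% in the control blood (94 of 102). The 17 cytosines with at least 20 reads in every pool were all higher with sGC, at 94.3% (1935 of 2051) against 76.9% (1133 of 1474) in blood and 15.8% (438 of 2775) against 2.95% (77 of 2612) in hippocampus. At these 17 the sGC and control pools did not overlap in blood either, with 85.0% to 97.6% against 62.6% to 84.5%. This division by depth was made after the values were seen, and many of these cytosines share reads. How often pools stand apart in other runs of cytosines was not counted in either tissue. The locus was chosen on this contrast, so the separation is a description.

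**Figure D3:**
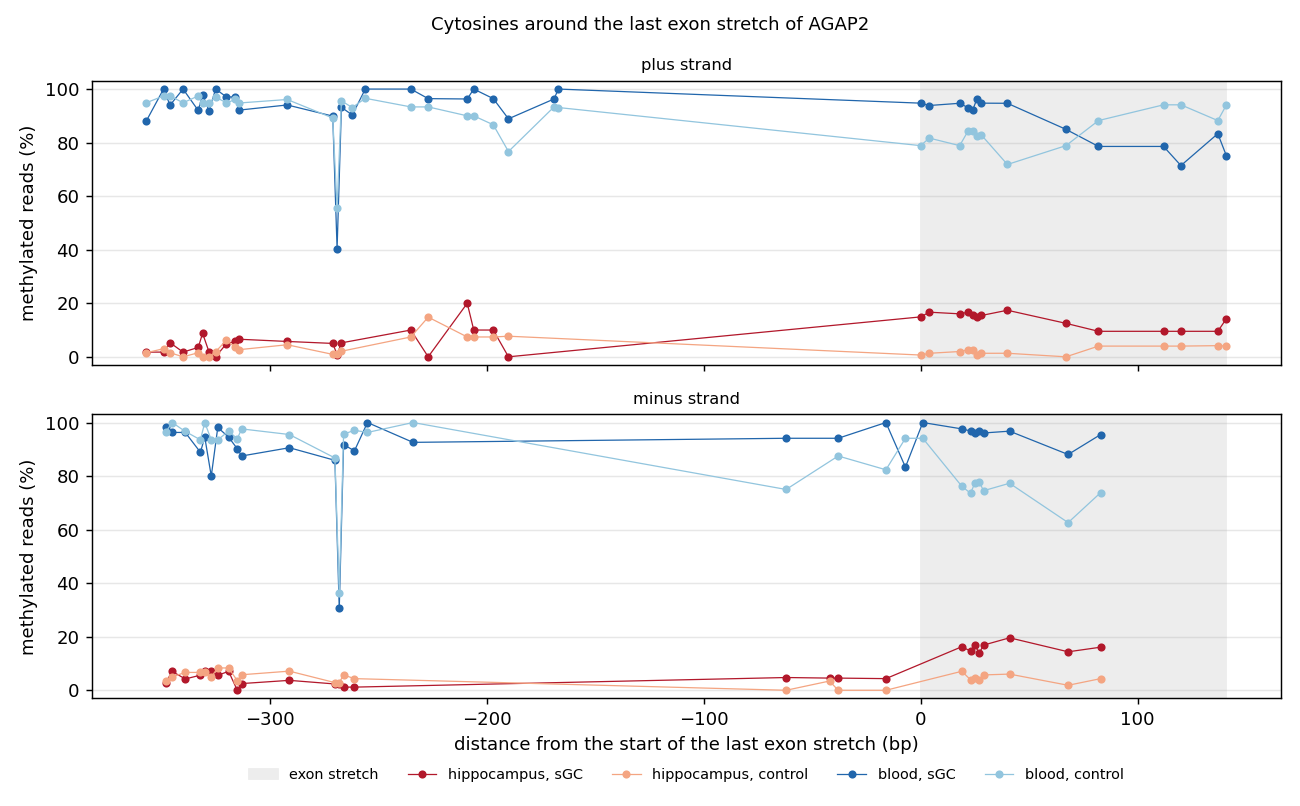
Methylation (y axis, %) of each cytosine of cluster 8 against its distance from the start of the last exon (x axis, bp), plus strand above and minus strand below, with lines that only join neighboring cytosines and the exon in grey. Before the exon the groups lie together in each tissue (4.21% and 3.82% in hippocampus), within it the sGC pools lie above the control pools (15.6% against 3.00% in hippocampus), and the last 5 plus strand cytosines, with few reads, cross in blood.

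In cluster 8 the difference lay in the last exon, and its border was not placed closely. In the part before the exon the hippocampus differed by 0.386 points (-0.704 to 1.48) and the blood by -1.28 points (-3.07 to 0.546), whereas less than 400 bp further the last exon differed by 12.6 and 16.0. Cluster 3 also joined a high level in blood, near 80%, to a low one in hippocampus, and the hippocampus differed there by 1.13 points (0.0297 to 2.25). The share of blood DNA in each hippocampus pool was not measured, and its part in the differences was not tested. Reads between 40096335 and 40096502 were scarce, with 16 to 30 reads at the cytosines listed there, so the place of the border within this gap was not resolved.

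Downstream of the last exon, cluster 9 held 4 cytosines of intermediate methylation in both tissues. The hippocampus was at 42.1% with sGC (231 of 549) and 39.0% in controls (159 of 408), a difference of 3.11 points (-3.19 to 9.32). The blood was at 44.5% (250 of 562) and 40.4% (221 of 547), a difference of 4.08 points (-1.73 to 9.85). In blood the plus strand and the minus strand cytosines, which belong to different CpGs, went opposite ways, and the pooled value hides this. No CpG of the cluster was listed on both strands, so strand and position cannot be told apart. On the plus strand the blood was at 63.7% with sGC (167 of 262) and 50.2% in controls (124 of 247), a difference of 13.5 points (4.93 to 21.9), close in size to that of the first exon in blood. Both plus strand cytosines had an unadjusted p below 0.05 and neither was called. On the minus strand, 94 bp further on, the blood was at 27.7% (83 of 300) and 32.3% (97 of 300), a difference of -4.67 points (-11.9 to 2.66).

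The tissue difference also varied among the cytosines of cluster 9, again with strand and position not told apart. In controls, 40097225 of the plus strand was methylated in 73 of 124 reads in blood (58.9%) and 28 of 91 in hippocampus (30.8%), while 40097252 had 51 of 123 (41.5%) and 36 of 91 (39.6%). Only the first of these was called between the control tissues. The 2 minus strand cytosines were lower in blood, with 32.3% (97 of 300) in blood and 42.0% (95 of 226) in hippocampus, and neither was called in controls.

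Differences of sGC less control were also called cytosine by cytosine, by Fisher's exact test (two-sided) of the pooled reads, with Benjamini-Hochberg adjustment over the whole table, at an adjusted p below 0.05 and at least 5 points. In hippocampus, 11 of the 288 cytosines were called higher, where 0.0729% of all cytosines were, and none lower, where 0.0391% were (60 of the 288 had an unadjusted p below 0.05). Of these, 10 lay in the last exon and 1, 40086077 of the plus strand, in the first, with 22 of 202 reads methylated with sGC and 1 of 208 in controls. In blood, 31 of the 344 cytosines were called higher, where 0.192% of all cytosines were, and none lower, where 0.125% were (70 had an unadjusted p below 0.05). There 20 lay in the first exon, 9 in the last, 1 at 40085705 upstream and 1 at 40086380 just past the first exon. Since the locus was selected on this contrast, these counts describe it and add no support.

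The lowest adjusted p values (Fisher's exact test) were 0.000809 in hippocampus, at 40096542, and 1.33e-06 in blood, at 40086341 of the minus strand. Called cytosines of both tissues met at 40096542 and 40096570. In the first exon, 1 call was of hippocampus and 20 were of blood. The test compares pools of reads and not animals, and dividing the chi-square statistic by its inflation over all cytosines (1.41 in hippocampus and 1.54 in blood) left 0 and 4 calls.

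**Figure D4:**
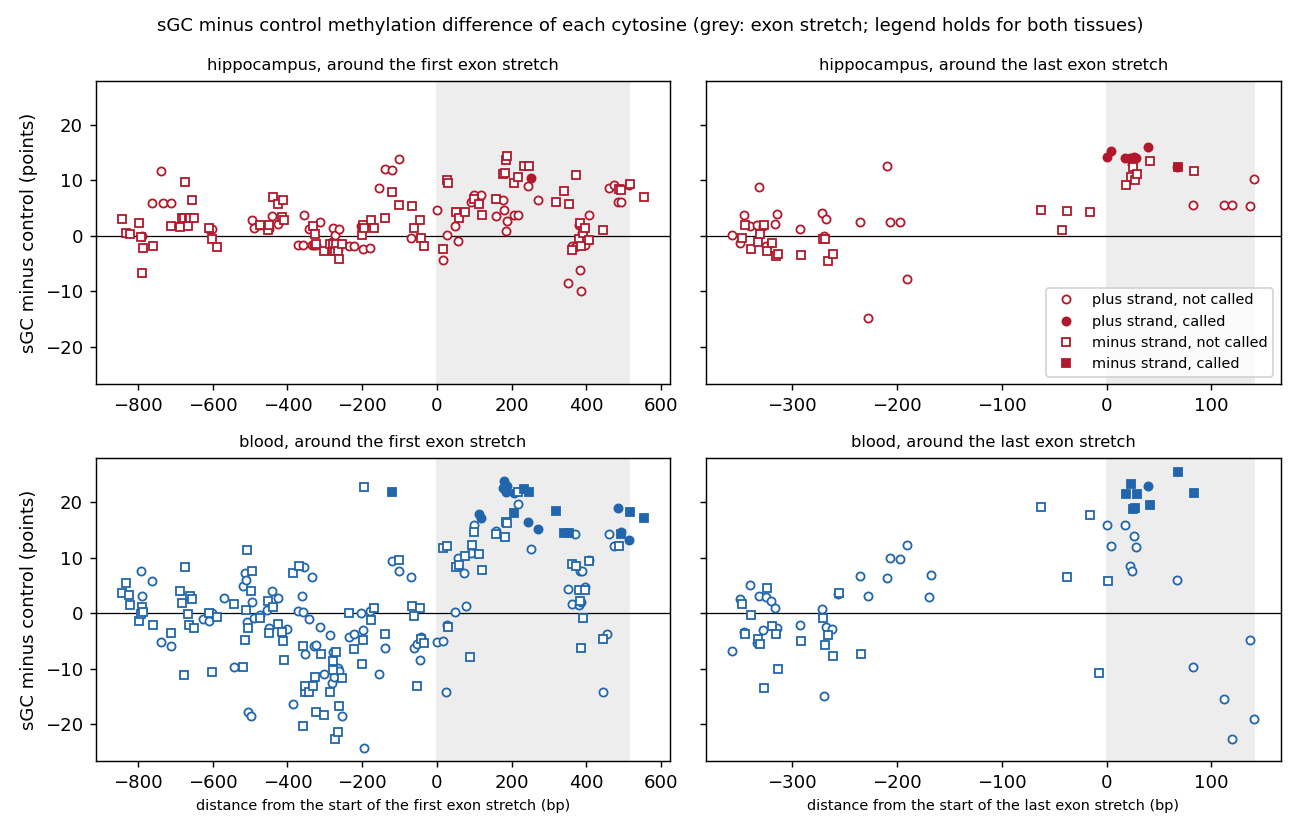
Difference of sGC less control (y axis, percentage points) of each cytosine around the first exon (left) and the last exon (right), in hippocampus (above) and blood (below), against the distance from the start of the exon (x axis, bp). Circles are plus strand and squares minus strand, filled where the exact test called the cytosine. In the last exon all 22 hippocampus cytosines lie above 5 points. In blood the differences before the first exon run from -24.2 to 22.7 points, which are the plus and the minus strand of the CpG at 40085630.

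The clusters were compared with those of the whole tables. Of the 9 clusters of the locus, 3 were at least 5 points higher with sGC in hippocampus (cluster 4 by 5.62, cluster 7 by 14.5 and cluster 8 by 6.86), where 15.1% of the 273070 clusters of the tables with at least 2 cytosines were. In blood, 1 was (cluster 8, by 6.60), where 11.5% were. Cluster 2, which joins the first exon to its upstream CpGs, differed by 3.73 points in hippocampus (975 of 15461 against 373 of 14493) and 3.70 in blood (9026 of 17596 against 6318 of 13275). Over all cytosines of the tables the mean difference was 1.07 points in hippocampus and 0.526 in blood, against 3.18 and 1.55 at the locus.

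The difference between the tissues was not used to choose the locus and was tested in the same way, with at least 10 points required. In the control pools, blood was called higher at 250 of the 284 cytosines listed in both tables, where 15.3% of all such cytosines were, and lower at none, where 4.43% were (264 of the 284 had an unadjusted p below 0.05). In the sGC pools, blood was called higher at 234, where 15.6% were, and lower at 2, where 5.01% were. The 2 were the minus strand cytosines of cluster 9, 40097346 and 40097365. At 40097346 the sGC hippocampus had 70 of 158 reads methylated (44.3%) and the sGC blood 34 of 150 (22.7%).

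The tissue difference had its own order along the gene. In the control pools it was 27.0 points upstream, where 66 of 96 cytosines were called, 77.1 points in the first exon, where 65 of 65 were, 62.9 between the exons, where 96 of 97 were, 74.7 in the last exon, where 22 of 22 were, and 1.43 downstream, where 1 of 4 was. Within the clusters between the exons, the difference in the control pools was 78.0 points in cluster 3, 14.1 in cluster 4, 24.7 in cluster 5, 46.0 in cluster 6 and 66.4 in cluster 7. A level of at most 10% in the control hippocampus together with at least 80% in the control blood was met by 110 of the 284 cytosines, of which 40 lay in the first exon, 10 in the last and 52 between the exons, where 0.114% of all cytosines listed in both tables met it. With the chi-square statistic divided by its inflation, which was 8.74 for the control pools and 8.90 for the sGC pools, 47 and 83 of the tissue calls were left. This factor comes from the median statistic across the genome, so it cannot separate excess spread from tissue differences found throughout the genome.

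The minus strand was compared with the plus strand of the same CpG within each pool, which the choice of the locus did not use either, although the cytosines that the study named in both tissues (13, of the last exon) were all of the plus strand. In the sGC hippocampus, none of 89 CpGs was called different between its strands by Fisher's exact test at 10 points (5 had an unadjusted p below 0.05), where 1.66% of all CpGs were. Among controls, 1 of 89 was in hippocampus, where 1.42% were. Each blood pool had 1 of 125, where 1.12% were. The share of CpGs with unequal strands was thus close to that of all CpGs, with at most 1 called in a pool.

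The CpG called in the control hippocampus was at 40085983, with 17 of 121 reads methylated on the plus strand and 0 of 107 on the minus strand at 40085984 (adjusted p = 0.00155, Fisher's exact test). With sGC, the same CpG had 22 of 125 (17.6%) and 7 of 106 (6.60%). The neighboring plus strand cytosines at 40085944 and 40086001 had 1 of 153 and 4 of 105 in controls, so the plus strand cytosine stood apart from them as well. In both blood pools the CpG called was at 40085589, with 22 of 57 reads on the plus strand and 14 of 15 on the minus strand with sGC, and 21 of 49 and 28 of 30 in controls. It lies where the blood passes from mostly unmethylated to mostly methylated, and the strands there came from reads of unequal depth.

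**Figure D5:**
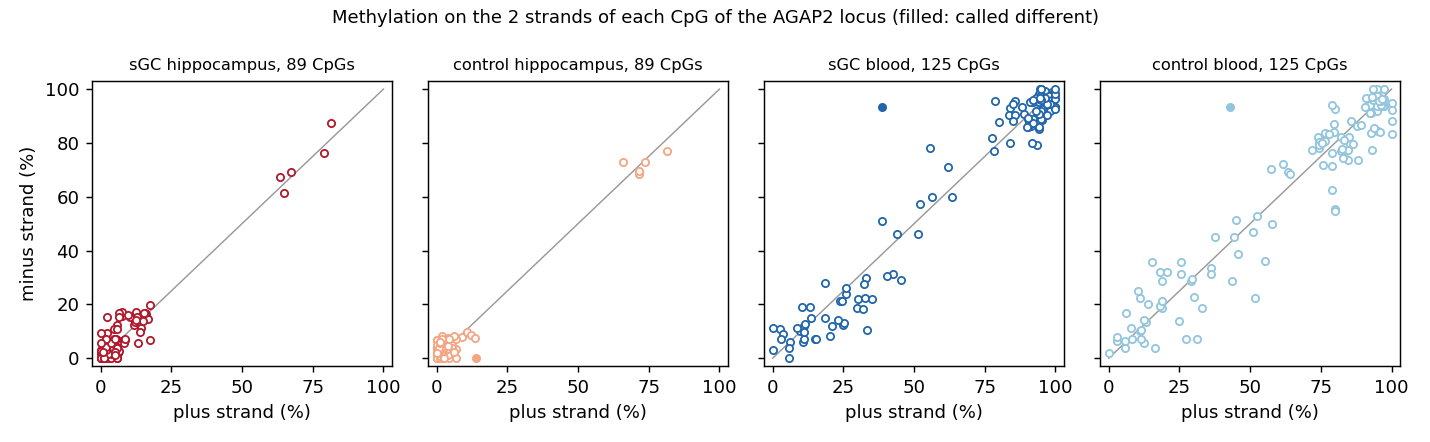
Methylation on the plus strand (x axis, %) against the minus strand (y axis, %) of each CpG of the locus with both strands listed, in the 4 pools, with the line of equality and filled points where the exact test called the strands different. Most CpGs lie near the line, 1 of 89 is called in the control hippocampus and 1 of 125 in each blood pool.

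Summed over stretches, the strands gave the same direction in the exons but not the same size. In the first exon the hippocampus differed by 4.36 points on the plus strand (351 of 4169 against 152 of 3747) and 6.58 on the minus strand (328 of 3182 against 116 of 3114). The blood there differed by 13.3 and 12.3 points. In the last exon the hippocampus differed by 13.6 points on the plus strand (237 of 1557 against 24 of 1488) and 11.4 on the minus strand (212 of 1323 against 58 of 1248). The blood differed by 10.4 points on the plus strand (1004 of 1088 against 590 of 721), which includes the 5 thinly read cytosines, and by 21.0 on the minus strand (1000 of 1047 against 637 of 855). The minus strand thus held the larger of the 2 differences in the hippocampus of the first exon and in the blood of the last, and 8 of the 9 blood calls of the last exon.

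Among 17 genes for which the study named at least 5 cytosines in both tissues, the ones most like the last exon of AGAP2 in their 4 pool levels were KIF21B, NFIA and NAV1. KIF21B, a kinesin motor that moves along microtubules, was in hippocampus at 12.1% with sGC and 2.00% in controls, and in blood at 94.0% and 75.7%, over 23 cytosines (DS562867.1:21373527-21373718), with a root mean square difference of 2.12 points from AGAP2. NFIA, a transcription factor of glial development, differed by 5.05 points and NAV1, a neuron navigator protein, by 5.57. The same order, with blood above hippocampus and sGC above control in both tissues, held in every one of the 17 genes but HM13, DHRS3 and FXYD6. It was thus not particular to AGAP2 or to the 3 genes named. All 17 genes were chosen by the study for differences in these samples, so this likeness is a description.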

How the data were processed

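RRBS libraries of 24 samples (12 animals, 2 tissues) were sequenced as single-end reads. The authors trimmed them with Trim Galore and a NuGEN script, processed them with Bismark 0.16.0, handled them with SAMtools 1.7 (versions from the submitters' processing notes) and fitted MethPipe models that held batch as a covariate. For each tissue the authors deposited counts of methylated reads and the coverage (total reads) of each cytosine, unnormalized sums of the 6 animals in a group, and only cytosines with at least 10 reads in both groups are listed. The study named cavPor3 as the build of its gene annotation, and the scaffold names and positions are those of the files. The FDR column of the authors' own comparison was not used. The bisulfite conversion and the batches of the pools were not analysed here.

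Levels are methylated over total readings summed over cytosines, with 95% intervals. Per-cytosine tests were Fisher's exact tests, two-sided, adjusted by Benjamini-Hochberg over 2869370 (hippocampus), 2927801 (blood) or 2564116 (both) cytosines, tested on simulated data first. The members, lists and tests were chosen with earlier results of these data known. AGAP2 matched 1 gene (4 transcripts) in a RefSeq table of another assembly, which was used for its name only. Other genes of the AGAP2 pathway were to be described only with an annotation of cavPor3 and are not analysed here. Cytosines named singly were the deepest of each cluster, those with the largest and smallest difference in each exon and tissue, and others chosen after their values were seen. The genes named as most like AGAP2 were the 3 with the smallest root mean square difference over the 4 pools. The short stretches around the first exon and the division of the last exon by depth were described after the values were seen. Total readings were 302474482 (sGC hippocampus), 273684449 (control hippocampus), 323883199 (sGC blood) and 269116901 (control blood). Alternatives changed the coverage minimum, the difference minimum, the test, the strands, the weighting and the gap. Tests ran in scipy 1.17.1 and numba 0.67.0 under Python 3.11.15, tables in pandas 2.3.3 and numpy 2.4.6, and plots in matplotlib 3.10.9.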

Additional observations from a re-analysis of the deposited data

How the results depend on the processing

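Of 60 results under alternatives, 46 were graded as unchanged and 14 as moved. Counts graded as unchanged could still differ in number. The 9 clusters became 13 with gaps of at most 100 bases and 8 with gaps of at most 500. With the strands of a CpG summed, blood was called different from hippocampus in controls at 171 of 196 CpGs, against 250 of 284 cytosines. None reversed. Dividing the chi-square statistic by its inflation left 0 calls of sGC against control in hippocampus, 4 in blood, 47 and 83 between tissues in the control and sGC pools, and 0 between strands in the control hippocampus and the sGC blood. Requiring 20 points left 0 strand calls in the control hippocampus, and requiring 20 reads left 0 in the sGC blood. The difference in the first exon was 4.36 (plus strand only) and 6.58 (minus strand only) points in hippocampus, and 9.74 in blood with equal weight for each cytosine. In the last exon in blood it was 9.53 with equal weight, 10.4 on the plus strand and 21.0 on the minus strand. The cause was not tested.

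No paired analysis was possible because the columns are sums over the 6 animals of a group, although the same animals gave both tissues. For the same reason leaving out single animals was not run. Coverage limits the single cytosines, with a minimum of 10 reads in a pool.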
